A study of Mus musculus with 6 samples.

Results

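The genes of MHC class II antigen presentation were examined in mandibular- and femur-derived monocytes. The group holds 8 genes, which are the chain genes H2-Aa, H2-Ab1 and H2-Eb1, the invariant chain gene Cd74, the transactivator gene Ciita, and the H2-DM genes H2-DMa, H2-DMb1 and H2-DMb2. They were picked by gene name and not by their values, and each was found once among the 57010 genes of the count table. Bulk RNA was sequenced from bone marrow monocytes of 1-year-old C57BL/6 mice (C57BL/6J in the methods), in 3 libraries from the mandible (S16, S19 and S23) and 3 from the femur (S13, S15 and S18). Neither group carried a named mutation or received a named treatment, and the study used male and female animals without saying which animals went into which library. The cells were the flow through of a magnetic column after antibody labeling of other marrow cells, so any cell that escaped labeling was sequenced with the monocytes. Nothing states that the libraries came from separate animals, so a p-value measures only the spread between these libraries, which may be technical.

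MHC class II molecules are pairs of an alpha and a beta chain that carry peptides from endosomes to the cell surface, where CD4+ T cells read them. The invariant chain, made by Cd74, blocks the peptide groove until endosomal proteases cut it, and H2-DM, a pair of H2-DMa and an H2-DMb chain, then exchanges the remaining fragment for peptides. Ciita is the coactivator without which the class II promoters are nearly silent, and it acts through factors bound to the X and Y boxes of these promoters. B cells and dendritic cells carry class II at all times, whereas most monocytes carry little until they mature or meet interferon-gamma. The b haplotype of C57BL/6 mice has a defective alpha gene, H2-Ea, and therefore lacks the H2-E pair at the surface although the beta gene H2-Eb1 is transcribed.

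The X and Y boxes are shown first, because class II promoters are known for them. RefSeq promoter windows of GRCm38.p6, each from 250 bases before to 50 bases after a gene start, were searched on both strands for a core of the X box, ACNGATG, and a core of the Y box, GATTGG. Windows were found for 8 of 12 class II loci and for 5 of the 8 members. H2-Ab1, Cd74, Ciita and H2-Ea had no entry. Stretches of 60 bases are printed in the direction of the gene, and capitals mark the X core on the left and the Y core on the right.
H2-Eb1, chr17:34305762-34305821, plus strand: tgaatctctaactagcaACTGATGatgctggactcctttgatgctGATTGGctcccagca
H2-DMb1, chr17:34153084-34153143, plus strand: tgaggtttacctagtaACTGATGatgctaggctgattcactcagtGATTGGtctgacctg
H2-DMb2, chr17:34145113-34145172, plus strand: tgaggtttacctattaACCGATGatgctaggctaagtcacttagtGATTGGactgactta
H2-Eb2, chr17:34325529-34325588, plus strand: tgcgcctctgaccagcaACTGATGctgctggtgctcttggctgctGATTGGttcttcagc
H2-Aa, chr17:34287858-34287917, minus strand: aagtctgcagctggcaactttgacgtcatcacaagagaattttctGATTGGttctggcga
The X core was followed by the Y core on the same strand in the first 4 of these, with 21 letters between them in H2-Eb1 and H2-Eb2 and 22 in H2-DMb1 and H2-DMb2. The X core lay 88 bases before the gene start in H2-Eb1, 91 in H2-DMb1, 120 in H2-DMb2 and 129 in H2-Eb2. H2-Aa held the Y core, 49 bases before its start, and no match to the X core on that strand, which says only that these letters are not in the window.

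Such a pair, with 10 to 30 letters between the cores, was rare. It occurred in 20 of 32851 promoter windows, or 0.0609% of them, and 4 of the 20 belonged to class II loci, of which 9 windows of 8 genes were searched. On the strand of the gene, H2-DMa had neither core in 1 of its 2 windows and the Y core alone in the other. On that strand H2-Ob held the Y core alone, and in H2-Oa the cores lay 137 and 44 bases before the start, outside the spacing searched. The X core was found in 9.85% and the Y core in 16.1% of the windows, on either strand and with or without the other core. H2-DMb1 and H2-DMb2 had the same base at 52 of the 60 positions shown (86.7%), against 41 of 60 (68.3%) for H2-Eb1 and H2-Eb2 and 15 of 60 (25.0%) for H2-Eb1 and H2-DMb1. A match describes the letters and does not show that a factor was bound in these cells.

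Because H2-DMb1 and H2-DMb2 are so alike, read sharing was examined before their counts were used. Of the windows of 50 bases in the GENCODE M21 transcripts of H2-DMb1, 369 of 1629 (22.7%) also occurred in transcripts of H2-DMb2. H2-DMb2 shared 25.9% of its windows with other genes. Reads of 2 such genes cannot be told apart there, so the split of counts between the H2-DMb genes is uncertain. H2-DMa shared 8.43% of its windows with Brd2, which lies on the other strand, and Ciita shared 1.46% with Dexi. H2-Ab1, H2-Eb1 and Cd74 shared none, and H2-Aa 0.514%.

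The positions below are those of GRCm38, taken from GENCODE M21 by Ensembl identifier, because none of the intervals that the count table gives for the 8 genes lies inside the M21 gene. The H2 members are neighbors on chromosome 17, where H2-DMa runs from 34119541 to 34139101, H2-DMb2 from 34143307 to 34151555, H2-DMb1 from 34153072 to 34160230, H2-Ab1 from 34257689 to 34269419, H2-Aa from 34282744 to 34287823 on the minus strand and H2-Eb1 from 34305867 to 34316674. Ciita lies on chromosome 16 from 10480059 to 10528418.

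Cd74 lies on chromosome 18 from 60803848 to 60812652. All 8 intervals are those of protein-coding genes, and the counts are sums over the exons of each.

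The libraries held 15718782 to 25371474 counts on genes. A count of 0 allows up to 3 counts, or 0.118 to 0.191 CPM (counts scaled to a common library size), and this limit covers counting error only. All 12 monocyte markers that were looked up had counts in every library, among them the lysozyme gene Lyz2 (4620 to 10579 CPM) and the chemokine receptor gene Ccr2 (369 to 849 CPM). Ace and Nr4a1, markers of nonclassical monocytes, were called higher in the mandible (adjusted p = 0.036 and 0.047, edgeR). Cx3cr1 and Treml4, also markers of that subset, overlapped between the groups and were not called (log2 fold changes 0.87 and 0.75). Mandible library S23 was the only one with a high level of Xist, at 1441 CPM against at most 0.553 CPM in the others, and it had no count of 4 Y-linked genes that summed to 2772 to 4590 counts in the others, the pattern of female cells. The 7 neutrophil markers summed to 2277 CPM in femur S15 against 14319 and 18279 CPM in the other femur libraries, and to 2576 to 7878 CPM in the mandible. The 7 mesenchymal and osteoblast markers summed to 291 to 386 CPM in the femur libraries against 7314 to 11433 CPM in those of the mandible. Values without S15 and without S23 are therefore given below. In bulk RNA, fewer cells of a type and less RNA per cell cannot be told apart.

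To determine whether class II expression differs between the skeletal sites, mandibular-derived monocytes were compared with femur-derived monocytes as the baseline. None of the 8 members was called, while 938 of the 18114 tested genes, or 5.18%, were called by edgeR's quasi-likelihood test when the p-value adjusted by Benjamini and Hochberg was under 0.05 and the change at least 2-fold. No member had an unadjusted p under 0.05 in this test, against 16.4% of all tested genes. DESeq2 and limma-voom also called no member, with an unadjusted p under 0.05 for Cd74 in DESeq2 and for Cd74 and H2-Eb1 in limma-voom. All 8 passed the filter on low counts, with 30 to 7508 counts per member and library. The log2 fold change was above 0 for 6 of the 8 members, against 47.8% of all tested genes. Its median was 0.33 over the 8 and -0.038 over all tested genes. The 8 members took 0.0266 to 0.0533% of the counts in the femur libraries and 0.0489 to 0.0766% in the mandible libraries, so the groups overlapped in their summed level.

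The chain genes are described first. H2-Ab1, the beta chain of the H2-A pair, was at 115, 33.3 and 124 TMM-scaled CPM in femur S13, S15 and S18 and at 137, 132 and 79.7 CPM in mandible S16, S19 and S23. Femur S15 was far below the rest, and mandible S23 lay below the other 2 femur libraries, so the groups overlapped. The means were 90.9 ± 50.1 CPM (SD, n = 3) in the femur and 116 ± 31.7 CPM (SD, n = 3) in the mandible, a log2 change of 0.36 from femur to mandible (SE, the standard error, 0.43, adjusted p = 0.79, 95% interval from -0.59 to 1.30).

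H2-Aa, its alpha chain, had 76.1, 36.1 and 78.8 CPM in the femur libraries S13, S15 and S18. In the mandible it had 88.7, 84.8 and 70.1 CPM in S16, S19 and S23, so that S15 was again the lowest and the groups overlapped through S23. Its log2 fold change was 0.35 (standard error 0.31, adjusted p = 0.69, 95% interval from -0.34 to 1.04). H2-Aa and H2-Ab1 form 1 protein, and their fold changes differed by less than either standard error.

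H2-Eb1, the beta chain whose alpha partner is defective in this strain, was at 44.96, 15.1 and 47.5 CPM in femur S13, S15 and S18 and at 63.8, 64.2 and 56.3 CPM in mandible S16, S19 and S23. Here all 3 mandible libraries lay above all 3 femur libraries. The log2 fold change was 0.78 (standard error 0.38, adjusted p = 0.35, 95% interval from -0.062 to 1.62), and the exact two-sided permutation test gave p = 0.1, the smallest that 3 against 3 libraries allow. The partner gene H2-Ea had 1 count in femur S15 and none in the other 5 libraries.

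Cd74, the invariant chain gene and the most abundant member, was at 157, 82.8 and 249 CPM in femur S13, S15 and S18. In the mandible it was at 325 and 356 CPM in S16 and S19 but at 158 CPM in S23, which was below femur S18. The means were 163 ± 83.2 and 279.9 ± 106.9 CPM (SD, n = 3 in each group), which is a log2 change of 0.78 (SE 0.42, adjusted p = 0.42, 95% interval from -0.14 to 1.70).

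Ciita, the transactivator, varied least. It was at 17.6, 18.01 and 17.3 CPM in femur S13, S15 and S18 and at 19.8, 24.5 and 21.2 CPM in mandible S16, S19 and S23. The groups did not overlap, but the distance was small, with means of 17.7 ± 0.349 and 21.8 ± 2.44 CPM (SD, n = 3 in each group), or 0.31 on the log2 scale in the fit (SE 0.31, adjusted p = 0.73, 95% interval from -0.37 to 0.98). The exact two-sided permutation test gave p = 0.1, again the smallest possible. Ciita starts transcription from several promoters that differ between dendritic cells, B cells and interferon-gamma treated cells, and counts per gene do not separate them.

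H2-Eb1 and Ciita were the members whose groups did not overlap, 2 of 8, while 24.2% of all tested genes had groups that did not overlap and 12.7% had all mandible libraries above all femur libraries. The members' share is near that of all genes. The same genes were separated with RLE size factors, while Ciita overlapped without normalization factors, where H2-Aa took its place.

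The H2-DM genes showed no common direction. H2-DMa had 28.3, 23.2 and 33.1 CPM in femur S13, S15 and S18 and 22.4, 39.9 and 30.3 CPM in mandible S16, S19 and S23, with the lowest and the highest values both in the mandible. H2-DMb1 had 22.2, 27.2 and 39.6 CPM in the femur libraries and 31.5, 36.6 and 14.2 CPM in the mandible libraries in the same order. H2-DMb2, the less abundant copy, had 5.14, 7.10 and 8.44 CPM in the femur libraries against 1.501, 6.08 and 10.01 CPM in those of the mandible. The log2 fold changes of the 3 genes were 0.13, -0.11 and -0.23 with standard errors of 0.31, 0.39 and 0.68, and the adjusted p was 0.92 to 0.94.

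**Figure D1:**
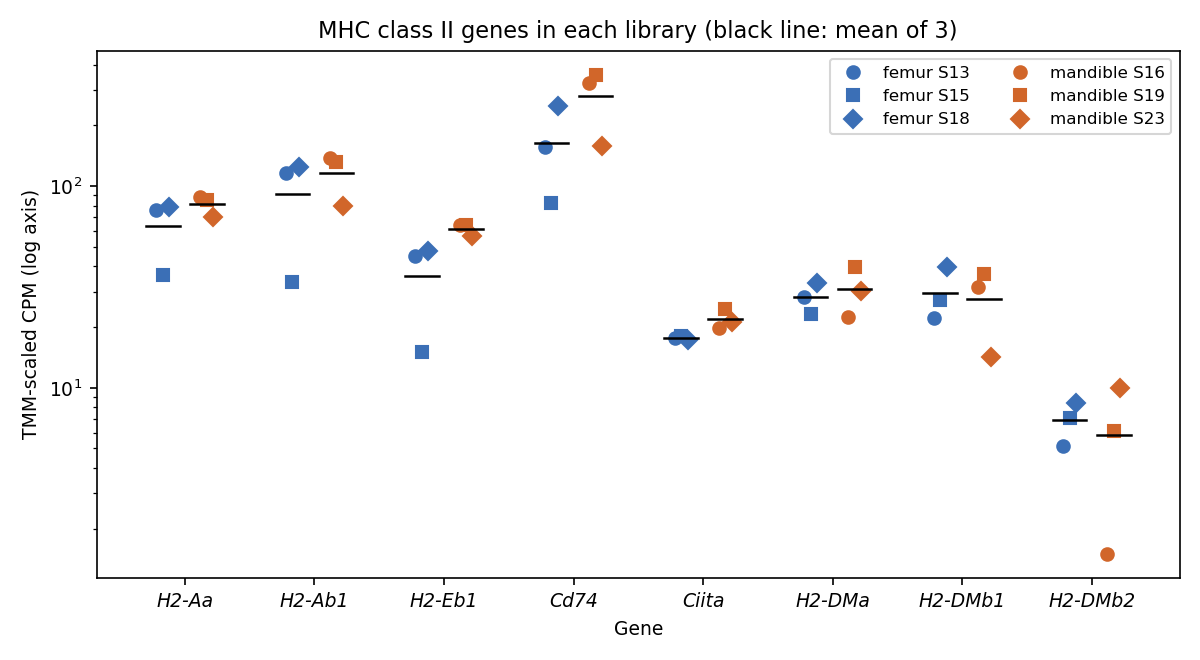
TMM-scaled CPM (log axis) of the 8 class II genes in 3 femur and 3 mandible libraries, with a black line at each mean. Femur S15 is the lowest library for H2-Aa, H2-Ab1, H2-Eb1 and Cd74 (33.3 CPM for H2-Ab1), and mandible S16 is the lowest for H2-DMb2, at 1.501 CPM.

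**Figure D2:**
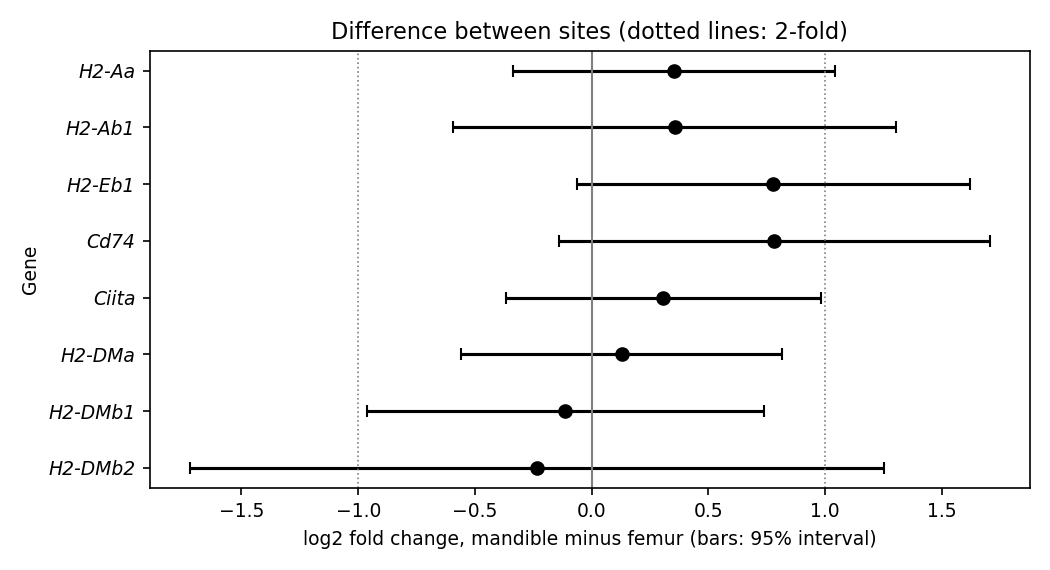
Log2 fold change of each member, mandible minus femur, with its 95% interval; dotted lines mark 2-fold. Every interval includes 0, and those of H2-Aa, H2-Ab1, H2-Eb1, Cd74 and H2-DMb2 reach past 2-fold in at least 1 direction.

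The width of the intervals sets what these libraries can show. For H2-Eb1 and Cd74 the intervals reached from 0.958-fold to 3.07-fold and from 0.906-fold to 3.26-fold, so that a 3-fold higher level in the mandible was not outside them. For Ciita and H2-DMa they reached from 0.776-fold to 1.97-fold and from 0.679-fold to 1.76-fold, so that differences of over 2-fold lay outside them. H2-DMb2, with 30 to 191 counts per library, had the widest interval, from 0.303-fold to 2.38-fold.

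The members were also compared by their profiles over the libraries. H2-Aa, H2-Ab1, H2-Eb1 and Cd74 were all lowest in femur S15, and relative to each gene's own mean log2 CPM they were at -0.95, -1.50, -1.55 and -1.25 in femur S15. In mandible S16 the same 4 genes were at 0.35, 0.54, 0.53 and 0.72. They parted in mandible S23, at 0.0085, -0.24, 0.35 and -0.32, and in femur S13, at 0.13, 0.30, 0.025 and -0.33. The other members shared no pattern. Ciita spanned 0.50 and H2-DMa 0.83 on the log2 scale over the 6 libraries, against 1.29 to 2.104 for these 4. H2-DMb1 was lowest in mandible S23, at -0.92, and H2-DMb2 in mandible S16, at -1.82, so the H2-DMb genes were apart in both libraries.

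**Figure D3:**
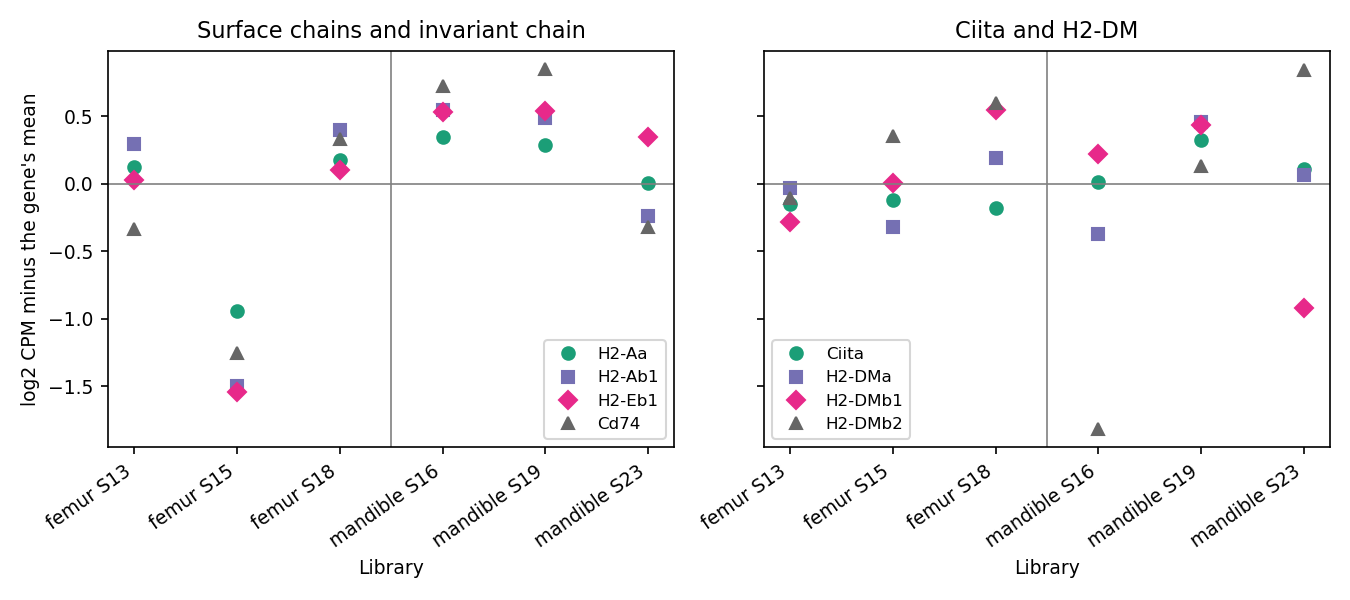
Log2 CPM minus each gene's mean over 6 libraries (vertical axis) by library, for H2-Aa, H2-Ab1, H2-Eb1 and Cd74 (left) and for Ciita and the H2-DM genes (right). The 4 genes on the left are all lowest in femur S15, from -0.95 to -1.55, while on the right Ciita stays within 0.50 from lowest to highest.

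Of the single libraries left out, femur S15 gave the lowest and femur S18 the highest log2 fold changes of H2-Aa, H2-Ab1, H2-Eb1 and Cd74. Without S15, the log2 fold change fell from 0.36 to -0.089 for H2-Ab1, from 0.35 to 0.024 for H2-Aa, from 0.78 to 0.37 for H2-Eb1 and from 0.78 to 0.42 for Cd74. Without S18 these were 0.65 for H2-Ab1, 0.54 for H2-Aa, 1.03 for H2-Eb1 and 1.23 for Cd74. No member was called without S15, nor without any other single library. Without mandible S23, the library with Xist, the values were 0.51 for H2-Ab1, 0.39 for H2-Aa, 0.78 for H2-Eb1 and 1.01 for Cd74 (adjusted p 0.30 to 0.70, edgeR). The low neutrophil markers of S15 stand beside these values, and whether they bear on the class II genes was not tested.

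**Figure D4:**
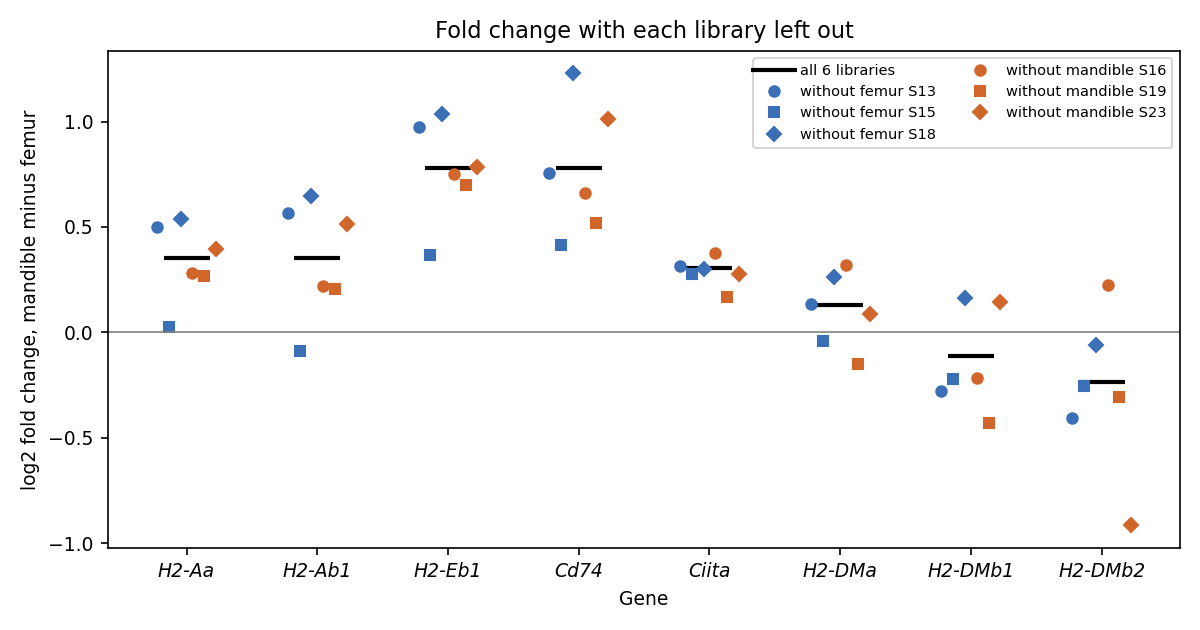
Log2 fold change of each member, mandible minus femur, with all 6 libraries (black bar) and with each library left out (points). Leaving out femur S15 gives the lowest value for H2-Aa, H2-Ab1, H2-Eb1 and Cd74, from 0.42 for Cd74 to -0.089 for H2-Ab1.

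Ratios between members within a library do not depend on the scaling of libraries. H2-Eb1 had 0.389, 0.453 and 0.383 counts per count of H2-Ab1 in femur S13, S15 and S18 and 0.465, 0.486 and 0.707 in mandible S16, S19 and S23. The mandible lay above the femur, and the exact two-sided permutation p was 0.1, or 0.60 after Benjamini-Hochberg adjustment over the 6 ratios computed. Cd74 had 1.36 to 2.49 counts per count of H2-Ab1 in femur libraries against 1.98 to 2.70 in mandible libraries, and H2-Aa had 0.636 to 1.09 and 0.643 to 0.879. H2-DMb2 had 0.213 to 0.261 counts per count of H2-DMb1 in the femur, and 0.0477, 0.166 and 0.703 in mandible S16, S19 and S23. The femur ratios of the H2-DMb genes were close together and the mandible ratios lay on both sides of them. The sequences that these 2 genes share limit how far this ratio can be read.

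Levels of different genes are compared per kilobase of exon. Over the 6 libraries the order was Cd74 with a level of 131.9 ± 63.7, H2-Ab1 with 40.3 ± 15.6, H2-Eb1 with 25.0 ± 9.41, H2-Aa with 19.1 ± 4.99, H2-DMb1 with 17.0 ± 5.59, H2-DMa with 8.57 ± 1.89, H2-DMb2 with 3.65 ± 1.69 and Ciita with 2.07 ± 0.291 CPM per kilobase (SD, n = 6). Cd74 exceeded H2-Ab1, and H2-Ab1 exceeded H2-Eb1, in 6 of 6 libraries. H2-Eb1 exceeded H2-Aa in 5 of 6 and H2-Aa exceeded H2-DMb1 in 4 of 6, and these neighbors did not differ beyond their spread. H2-DMa and H2-DMb2 were the neighbors whose ranges over the libraries did not overlap. The transactivator had the lowest mean level of the 8 per length, but its range overlapped that of H2-DMb2, which exceeded it in 5 of 6 libraries, and the invariant chain gene had 3.27 times the level of the next gene.

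Other loci of the class II region had low counts. H2-Oa and H2-Ob encode H2-O, a pair that restrains H2-DM and is best known from B cells. H2-Ob had 86, 107 and 70 counts in femur S13, S15 and S18 and 6, 45 and 61 counts in mandible S16, S19 and S23, and H2-Oa had from 0 to 76 counts per library. H2-Eb2, a further beta chain gene, had 0 to 41 counts. None of these 3 tested loci was called (adjusted p 0.67 to 0.91, edgeR).

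**Figure D5:**
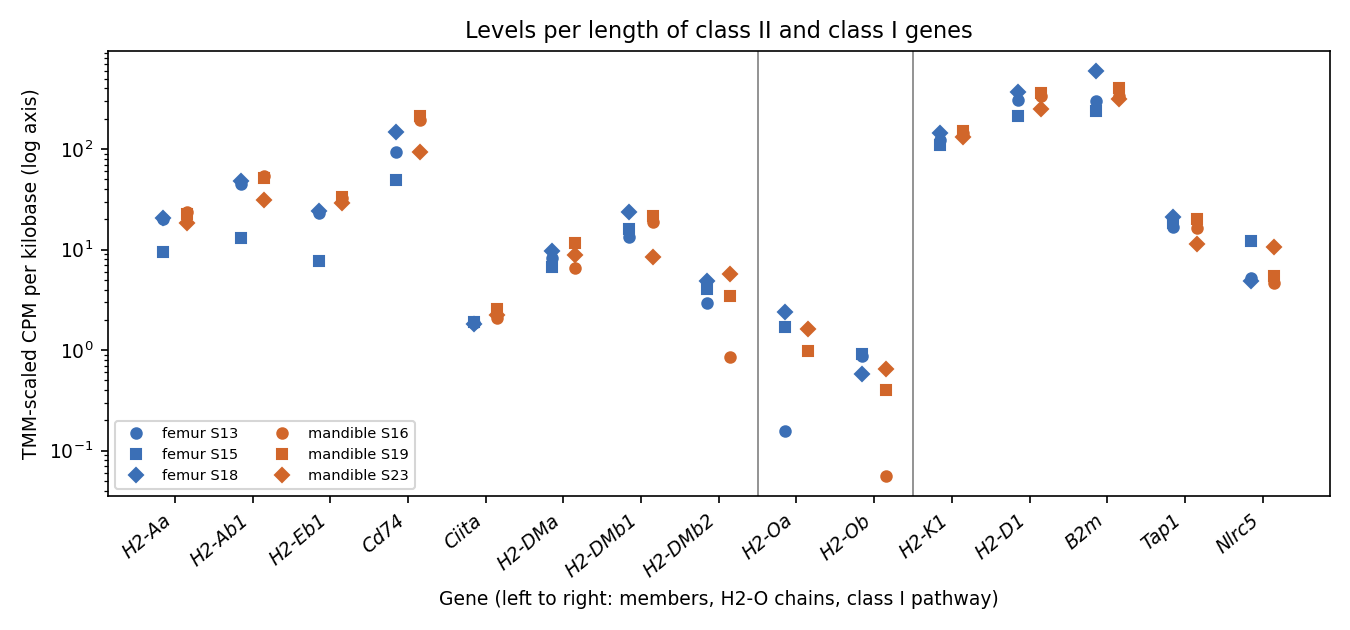
TMM-scaled CPM per kilobase of exon (log axis) of the members, the H2-O chains and 5 class I pathway genes in each library. The class I genes H2-D1 and B2m lie above every member in all 6 libraries and H2-K1 above every member except Cd74, and a level of 0 (H2-Oa in mandible S16) is not drawn.

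Class I molecules, which nearly all cells carry, were measured in the same libraries. H2-D1 averaged 295 ± 79.8 CPM per kilobase in the femur and 317 ± 57.2 in the mandible, and H2-K1 126 ± 17.9 and 142 ± 11.0 (SD, n = 3 in each group). B2m, their shared light chain, averaged 380 ± 190.4 and 351 ± 48.4 CPM per kilobase. Of the 11 class I pathway genes none was called and 5 had a change above 0, against 47.8% of all tested genes. H2-D1, H2-K1 and B2m were also lowest in femur S15, at 543, 323 and 206 CPM. Second lowest was mandible S23 for H2-D1 (650.3 CPM), as for H2-Ab1, but femur S13 for H2-K1 and B2m (364 and 260 CPM). The highest library differed too, femur S18 for H2-D1 (952 CPM) and mandible S16 for H2-Ab1. Other genes of the list were lowest elsewhere, among them Tap1 in mandible S23 (62.3 CPM) and Nlrc5 in mandible S16 (39.6 CPM).

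Genes that control class II transcription form a list of 14, all of which were tested. None was called and 10 had a log2 fold change above 0, against 47.8% of all tested genes. Rfx5, a subunit of the factor that binds the X box, was at 20.9 ± 3.66 CPM in the femur libraries against 27.4 ± 10.8 CPM in those of the mandible (SD, n = 3). Ifngr1, which encodes a chain of the interferon-gamma receptor, had a log2 fold change of -0.098, and Irf8 and Spi1, transcription factors of the monocyte lineage, had 0.095 and -0.17.

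Endosomal processing held the one pathway gene that was called. Ctsl, which encodes the protease cathepsin L, was at 26.6, 23.5 and 33.8 CPM in femur S13, S15 and S18 and at 69.0, 73.4 and 81.6 CPM in mandible S16, S19 and S23. The libraries of the mandible were all above those of the femur, with a log2 change of 1.42 (SE 0.26, adjusted p = 0.0080, 95% interval from 0.85 to 1.98). The call was lost without femur S13 and without mandible S19. Cathepsin L cuts the invariant chain in thymic epithelium and is made by fibroblasts and other stromal cells too. Of the 7 mesenchymal and osteoblast markers, 5 were called higher in the mandible, against 3.88% of all tested genes. Cxcl12 and Lepr of that list were not called (log2 fold changes -1.42 and -0.44). Without Col1a1 and Col1a2 the list summed to 194 to 299.7 CPM in femur libraries against 166 to 370.3 CPM in mandible libraries. Cxcl12 held most of that femur sum, at 149 to 243 CPM against 34.7 to 121 CPM in the mandible. Pdgfra, Pdgfrb and Sp7 were called higher, with every mandible library above every femur library. The part of stromal cells in the level of Ctsl was not tested.

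Ctss, which encodes cathepsin S, the main protease for the invariant chain in B cells and dendritic cells, was at 436, 297 and 740.5 CPM in the femur libraries and 817, 786 and 386 CPM in the mandible libraries, and was not called (log2 fold change 0.43, adjusted p = 0.71). Ctsh, which encodes cathepsin H, was lower in each mandible library than in each femur library, with means of 165.8 ± 36.3 and 259.99 ± 56.2 CPM (SD, n = 3), and was not called (log2 fold change -0.65, adjusted p = 0.28). Marchf1, whose ubiquitin ligase removes class II from the surface, had 50.4, 75.8 and 72.9 CPM in the femur libraries against 98.7, 90.1 and 85.8 CPM in those of the mandible and was not called (log2 fold change 0.46, adjusted p = 0.43). Over the 9 genes of this list, 8 had a log2 fold change above 0, against 47.8% of all tested genes.

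Costimulatory genes, whose products T cells need beside the class II signal, gave no call among 6. Cd86 had 18.03 ± 7.73 CPM in the femur libraries against 23.8 ± 5.88 CPM in those of the mandible (SD, n = 3), with a log2 fold change of 0.40. Over the 5 pathway lists together, 1 of 43 tested genes was called higher and none lower, against 3.88% higher and 1.30% lower among all tested genes. At an unadjusted p under 0.05 there were 4 of 43 (edgeR), against 16.4% of all tested genes.

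Markers of the cell types that carry class II at all times were set beside these results. The 12 B cell markers summed to 27.7 to 35.03 CPM in the femur libraries against 26.8 to 49.3 CPM in those of the mandible. Pax5, a defining B cell gene, had no count in femur S13. Mandible S16, which had the highest sum, had 172 counts of Pax5 (8.61 CPM), against at most 59 in any other library. Blk, another gene of the list, was also highest in S16, with 119 counts against at most 44 elsewhere. Cd79b, a chain of the B cell receptor complex and the most abundant of the list, was at 3.92 CPM in femur S15 against 13.04 and 15.02 CPM in the other femur libraries. Ebf1, a B lineage factor that stromal cells also express, was called higher in the mandible (log2 fold change 1.89, adjusted p = 0.048, edgeR).

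The 9 conventional dendritic cell markers summed to 56.4 to 59.6 CPM in the femur libraries against 67.6 to 87.0 CPM in those of the mandible. Fscn1, which encodes the actin bundler fascin and is not limited to dendritic cells, was the called member (1.96 ± 0.516 and 17.6 ± 3.70 CPM, SD, n = 3), and without it the sums overlapped, at 54.3 to 58.2 and 45.8 to 70.98 CPM. Flt3, the receptor on which dendritic cells depend, had 15.3 to 19.04 CPM in the femur libraries against 18.1 to 30.6 CPM in those of the mandible, and Xcr1 had no count in 3 libraries. Clec10a had its highest value in femur S15, at 19.8 CPM (log2 fold change -0.92). Cd209a had its lowest in mandible S23, at 2.12 CPM (log2 fold change 0.32), and neither was called. Clec9a was lower in every mandible library (1.61 to 2.86 CPM) than in any femur library (3.05 to 6.79 CPM). Its log2 fold change was -1.24, and it was not called. Of the 8 tested markers of this list, 5 had a log2 fold change above 0.

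The 6 plasmacytoid dendritic cell markers summed to 7.62 to 9.45 CPM in the femur libraries against 21.03 to 26.7 CPM in those of the mandible. The called member was Cox6a2, a respiratory chain gene that striated muscle also uses. All 5 tested markers of this list had a log2 fold change above 0, with a median of 1.11, against 47.8% of all tested genes above 0. Ccr9 was also higher in every mandible library (7.03 to 8.29 CPM against 2.54 to 5.67 CPM) and was not called. The groups of the other tested markers overlapped. The 11 macrophage markers summed to 94.9 to 243 CPM and 139.7 to 150.4 CPM, and C1qa had no count in mandible S19 and S23. Vcam1, an adhesion molecule, was called lower in the mandible (log2 fold change -2.11, adjusted p = 0.040), C1qb, C1qc and Cd5l were below the femur in every mandible library and not called, and Axl was above it and not called. Plasma cell markers summed to 280 to 707 CPM in the femur libraries and 242.5 to 378 CPM in those of the mandible. Sdc1 was called higher in the mandible (log2 fold change 1.99), and Derl3 was also above 0 (0.36). Jchain, the most abundant of the list, went the other way (log2 fold change -1.04), as did Mzb1 (-2.22) and Tnfrsf17 (-1.25). Of this list only Sdc1 was called. T and NK cell markers summed to 44.5 to 146 CPM and 48.9 to 116 CPM. The part of any of these cells in the class II levels was not tested.

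The genes whose profile over the 6 libraries was most like the mean of H2-Aa, H2-Ab1, H2-Eb1 and Cd74 were looked up by the root mean square distance of centered log2 CPM. Among 11439 genes with a mean of at least 5 CPM, the nearest were Apoe, at a distance of 0.12 on the log2 scale, Nxn at 0.13, and Golim4 and Oxct1 at 0.16. Apoe, which encodes the apolipoprotein that macrophages secrete, had a mean of 279.7 CPM and a log2 fold change of 0.60. After them came Gimap7, Gpc1, Pdcd4, Gm11560, Septin6 and Itm2c, at up to 0.22, and none of the 10 was called. Marker genes of B cells and dendritic cells on the lists above were not among the 10. With 6 libraries and this many genes, near profiles are a description and not evidence of a link.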

How the data were processed

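RNA of mandibular- and femur-derived monocytes was measured in 6 libraries. The authors trimmed paired-end reads, mapped them with HISAT2 2.1.0 to a genome named as GRCm38 and counted them with featureCounts. The deposited values are raw read counts per gene, and strand and multi-mapping settings are not given in the sources used here. Each column was matched to its sample by the library name in the labels. In R 4.3.3, counts were filtered by filterByExpr (minimum count 10, minimum total 15), scaled by TMM and tested with the quasi-likelihood test of edgeR 4.0.16 over all genes, with Benjamini-Hochberg adjustment and no covariates. Standard errors were taken from the F statistic, and the 95% intervals from these. CPM uses TMM-scaled totals, and profiles use log2 CPM with a prior count of 2. Gene lengths are those of the deposited table. The exact permutation test was two-sided. Alternatives were DESeq2 1.42.0, limma-voom (limma 3.58.1), other scalings, filters and thresholds, a loess correction for gene length (span 0.4) and each library left out. Scripts were tested on simulated data. The members, gene lists and rules for named genes (the 8 members, pathway list genes, the called and 3 most abundant genes of each marker list, and the 10 nearest profiles) were chosen with earlier results of these data known. Marker genes named outside these rules, among them those named for a count of 0, were chosen after their values were seen. Results for some list genes are not reported here. Marker sums without Fscn1, and without Col1a1 and Col1a2, were added after seeing the data.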

Additional observations from a re-analysis of the deposited data

How the results depend on the processing

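No class II member was called under any alternative run, which were other scalings, DESeq2, limma-voom, other filters, prior counts and thresholds, a length correction and each library left out. Cd74 and H2-Eb1 both had an unadjusted p under 0.05 without normalization factors, with limma-voom and with no filter on low counts. They also had it with the length correction and without femur S18 (edgeR). Cd74 alone had it with DESeq2 and without mandible S23, and H2-Eb1 alone with at least 10 counts in every library. No member had it in the other runs. The number of genes called among all tested was 938, and moved to 1548 with DESeq2, 1590 with no filter on low counts, 445 at an adjusted p under 0.01, and from 434 (without mandible S19) to 1565 (without femur S15) with 1 library left out. The count of called pathway genes, 1, fell to 0 without femur S13 or mandible S19, a range of 0 to 1. With 1 library left out, the log2 fold change ran from -0.089 to 0.65 for H2-Ab1, from -0.15 to 0.32 for H2-DMa, from -0.43 to 0.16 for H2-DMb1 and from -0.91 to 0.22 for H2-DMb2. The sign reversed without femur S15 for H2-Ab1 (-0.089) and H2-DMa (-0.039), without mandible S19 for H2-DMa (-0.15), without femur S18 (0.16) and mandible S23 (0.14) for H2-DMb1, and without mandible S16 for H2-DMb2 (0.22). The length correction reversed Ciita (-0.055) and H2-DMb1 (0.071); the cause was not tested. The members' mean share of counts was 0.0407% in the femur and 0.0642% in the mandible, and 0.0562% and 0.0821% when only protein-coding genes were counted. With 5 to 40 letters between the X and Y cores, 0.113% of promoter windows held the pair. No paired analysis was possible because the groups share no replicate number. With 3 libraries a group, the members' 95% intervals are wide, and for H2-DMb2 counting error adds to them, with 30 counts in mandible S16.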
